A study of Homo sapiens with 6 samples.

Results

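The genes described here encode the machinery that starts and copies DNA: 47 genes fixed by symbol, from the E2F factors and cyclin E through origin licensing and the helicase to the clamp, the polymerases and Okazaki fragment joining. All 47 were found among the 19792 genes of the authors' deposited table. They were measured in BT-549, an established line of triple-negative breast cancer. Its tet-WDR5shRNA derivative transcribes, once doxycycline (DOX) is added, a short hairpin RNA against WDR5, a core subunit of the COMPASS H3K4 methyltransferases. RNA-seq was performed on 3 cultures given vehicle (0.1% DMSO, no DOX) and 3 given 500 ng/ml DOX, and the paper's text gives the treatment as 7 days. All 6 libraries share the cell line and the hairpin cassette.

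Each level below is the authors' mean normalized count, a mean over vehicle and DOX libraries together. The libraries were not analysed one by one, so a level has no replicate error, library depth is unknown, and DOX was not compared with vehicle. The columns in which the authors compared the 2 groups were not used here. For WDR5 itself the authors' mean is 1143, which joins both groups and is therefore no check of silencing. The mesenchymal markers VIM, FN1, CDH2, ZEB1, SPARC, COL1A1, TGFBI and AXL all stood in the top 25% of listed genes, with authors' means from 4093 (CDH2) to 47782 (VIM). Of 8 epithelial and hormone receptor markers, ESR1, PGR, FOXA1 and EPCAM had authors' means of 0.790, 0.801, 0.516 and 1.30, whereas GATA3 was at 362, ELF3 at 132, CDH1 at 59.6 and KRT19 at 17.7. Among blood and endothelial markers, CD3E and HBB had no row, the authors' means of CDH5, VWF and PECAM1 were 0.172, 0.621 and 2.86, and PTPRC was at 44.7.

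Replication starts in 2 steps. In G1, the origin recognition complex, CDC6 and CDT1 load the MCM helicase onto origins in an inactive form, and geminin (GMNN) blocks CDT1 after origins have fired. At the onset of S phase, when cyclin E-CDK2 is also active, the CDC7-DBF4 kinase acts on the loaded helicase. CDC45 and GINS join the helicase, and the polymerases, clamp and clamp loader follow. Many of these genes are known targets of the E2F factors, which are held back by RB family proteins until G1 cyclins release them.

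The promoters of the replication genes were searched for the E2F-type motif, since it is the sequence for which the group is best known. RefSeq promoters (GRCh38.p14), from 250 bases before to 50 bases after the start site, matched 40 of the 47 genes, and MCM4, MCM5, GINS4, POLD3, RPA2, RPA3 and CCNE2 had no entry. The 4 spellings searched on both strands were TTTCCCGC, TTTGGCGC, TTTCGCGC and TTTGCCGC. A match was found in 19 of the 40 promoters (47.5%), against 4.88% of the 13608 promoters of listed genes. The sequences below show 1 site each from genes of different roles, 5′ to 3′ on the strand of the gene, with the motif in capitals.
E2F1: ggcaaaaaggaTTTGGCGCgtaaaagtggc
E2F2: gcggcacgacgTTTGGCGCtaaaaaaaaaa
E2F3: ttgaaaagccgGCGGGAAAtccgagtttcg
CDC6: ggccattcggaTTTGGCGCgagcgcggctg
CDT1: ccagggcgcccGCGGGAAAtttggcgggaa
MCM3: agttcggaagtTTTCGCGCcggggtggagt
MCM6: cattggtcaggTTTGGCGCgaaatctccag
MCM7: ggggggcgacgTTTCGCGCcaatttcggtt
GINS2: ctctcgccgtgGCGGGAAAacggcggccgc
POLE2: ctgcggcggtgGCGCCAAAtcgcaaatatg

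These 30-base windows lie at chr20:33686387-33686416 (E2F1, minus strand), chr1:23531257-23531286 (E2F2, minus), chr6:20401815-20401844 (E2F3, plus), chr17:40287875-40287904 (CDC6, plus) and chr16:88803743-88803772 (CDT1, plus). Those of the helicase and fork genes lie at chr6:52284728-52284757 (MCM3, minus), chr2:135876515-135876544 (MCM6, minus), chr7:100101388-100101417 (MCM7, minus), chr16:85688967-85688996 (GINS2, minus) and chr14:49688201-49688230 (POLE2, minus). In E2F3, CDT1, GINS2 and POLE2 the capitals are the reverse complement of a spelling. In MCM6 the site overlaps a second match on the other strand, 4 bases on, and the same pair of overlapping matches occurs again farther upstream, so that MCM6 held 4 of the 26 matches in member promoters. A match is a run of letters and not a measured binding site.

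The motif was spread unevenly over the roles, which hold from 1 to 5 promoters each, and the spread was not tested. All 3 E2F genes held it, as did the 4 MCM genes with an entry (MCM2, MCM3, MCM6 and MCM7), the 3 GINS genes with an entry, both polymerase epsilon genes, and CDC6 and CDT1. It was found in ORC3 alone of 5 origin recognition genes and in RFC3 alone of 5 clamp loader genes. POLA1, POLA2 and LIG1 had a match, whereas PRIM1, PRIM2, FEN1, POLD1, POLD2 and RPA1 had none. PCNA, GMNN, CDC45, CDC7, DBF4, MCM10 and CCNE1 had no match in this window. By position, 16 of the 26 matches began within 100 bases before the start site. The last 50 bases before it held 42.3% of member matches and 18.0% of the 671 matches in other listed promoters. The median level per kb was 366 in the 19 genes with a match and 558 in the 21 without.

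**Figure D1:**
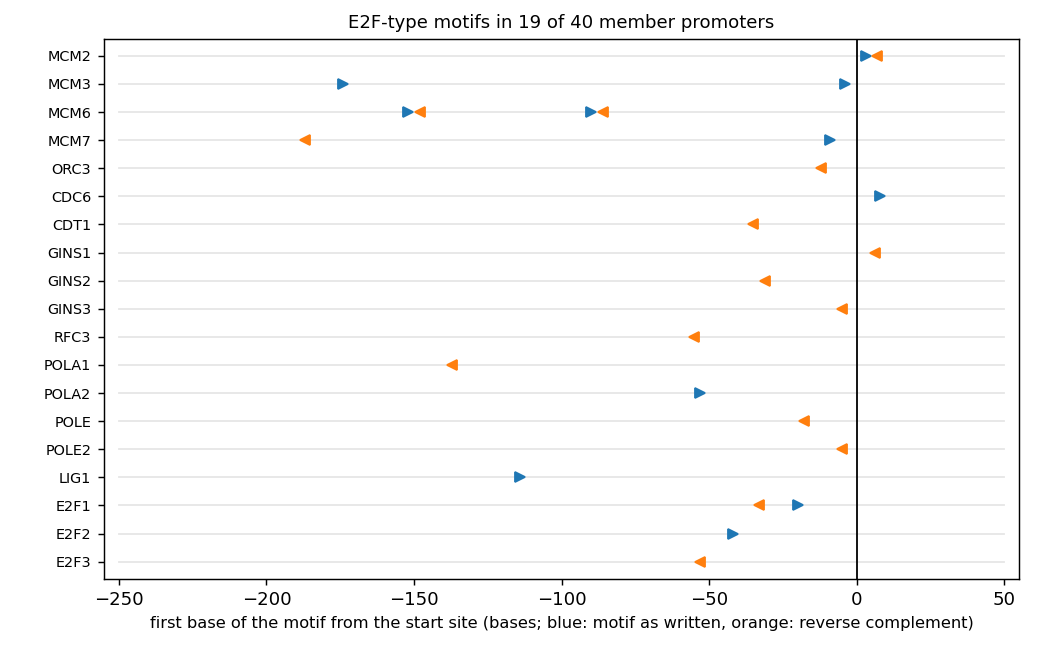
Each row is 1 of the 19 member promoters with an E2F-type motif, and the x axis gives the first base of each match from the start site, from 250 bases before to 50 after. Triangles pointing right are the motif as written and those pointing left its reverse complement; 16 of 26 matches begin in the last 100 bases before the start and 4 after it.

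The other motifs searched stood closer to the background. CCAAT, the NF-Y site, was in 55% of member promoters and 36.4% of listed ones. The GC box GGGCGG was in 72.5% and 66.9%, and the E-box CACGTG in 12.5% and 9.27%. The AP-1 site TGANTCA, which binds the factors that the study follows, was in 1 member promoter (GINS1, 2.50%, against 5.11%). The paper places an AP-1 motif of NOTCH1 farther upstream than this window reaches, and such regions of the members were not searched. TTTGAA, the CHR element of G2 and M phase genes, was in 5% against 10.4%, and the TATA box TATAAA in 2.50% against 7.22%. Base composition was close, with a median GC content of 65.3% in member and 65.0% in listed promoters. Within each class of GC content, listed promoters held the E2F-type motif in 2.16% (under 50% GC), 5.33% (50 to 60%), 5.64% (60 to 70%) and 4.76% (over 70%), whereas 5 of 12, 10 of 18 and 4 of 10 member promoters held it in the upper 3 classes.

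**Figure D2:**
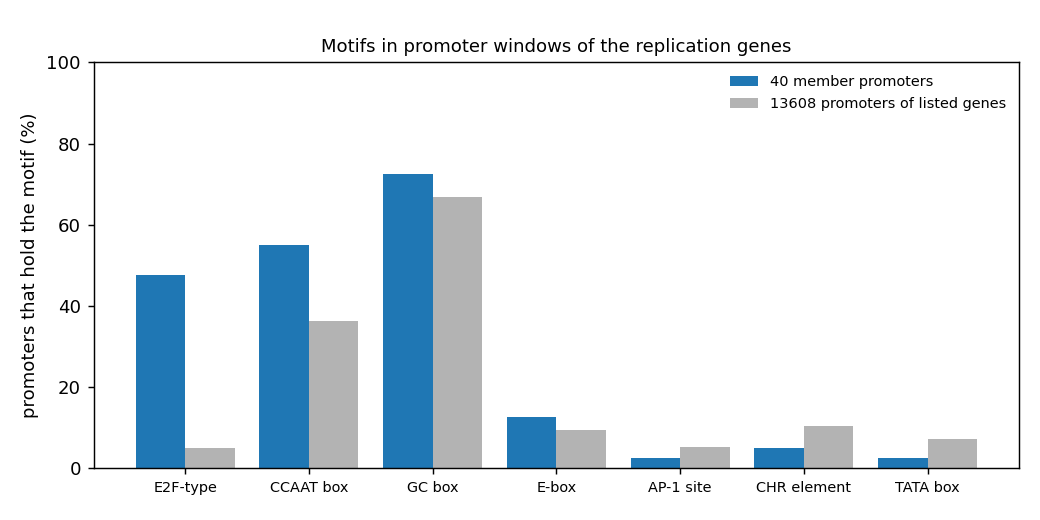
Bars give the percent of promoters that hold each motif on either strand, from 0 to 100%, for the 40 member promoters (blue) and the 13608 promoters of listed genes (grey), which include the members. The E2F-type motif shows the widest gap, at 47.5% against 4.88%.

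Levels were then set side by side as mean normalized counts per kb of canonical transcript (GENCODE 44). The cells expressed the whole set: authors' means ran from 237 (CCNE1) to 9123 (MCM4), 30 of the 47 genes had at least 1000, and none was under 10. Of the 19792 listed genes, 13548 had 10 or more, and the share with at least 1000 was not counted. The median authors' mean was 1242 in the members and 187 in the listed genes. Per kb, all 47 lay above the median of the listed genes (80.6), and 28 (59.6%) lay in their top 25%, which began at 380. The median of the members was 433 per kb, at the 77.4 percentile of listed genes. Against only the 13548 listed genes whose authors' mean was 10 or more, it was at the 68.1 percentile and 18 members were in the top 25%. With levels per kb of coding sequence, 19 were. The 47 genes held 0.320% of the summed mean normalized counts and make up 0.237% of the listed genes. In bulk RNA, a level joins the share of cells in cycle with the RNA per cell, and the 2 cannot be told apart. The paper reports that these cells proliferated less after WDR5 silencing. Each mean may therefore join cultures that differ in that share, which was not tested.

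**Figure D3:**
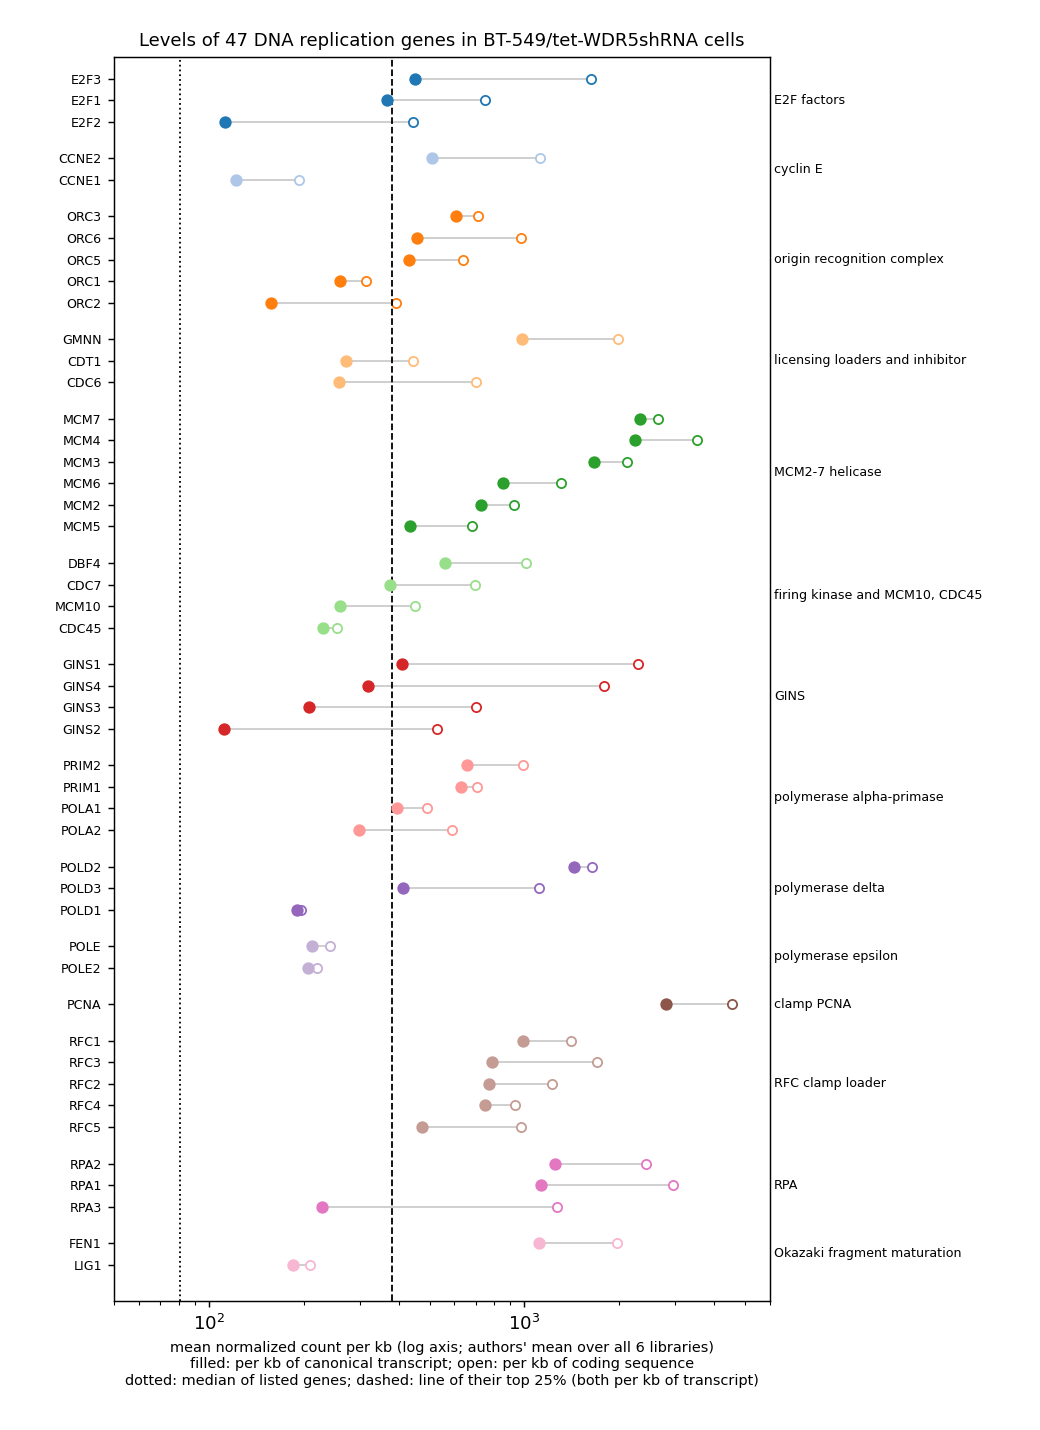
Points give the mean normalized count per kb on a log axis, filled for canonical transcript length and open for coding length, with genes grouped by role; each is the authors' mean over all 6 libraries, so no error can be drawn. PCNA is the highest at 2805 per kb of transcript and GINS2 the lowest at 112, and every filled point lies right of the dotted median of listed genes (80.6).

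Among the regulators at the G1/S boundary, E2F3 was the highest of the activator E2Fs at 451 per kb, followed by E2F1 at 366 and E2F2 at 112, and this order was kept with all 3 measures of length tried. Of the partners and restrainers listed beside them, TFDP1, the DP subunit that pairs with E2Fs, was the highest at 1924 per kb, and the repressor E2F8 the lowest at 103. RB1 was at 260, RBL1 at 309 and RBL2 at 391, 3 genes chosen after their values were seen. Of the E-type cyclins that activate CDK2, CCNE2 stood at 510 per kb and CCNE1 at 122, a ratio of 4.19 that ranged from 3.21 to 5.82 with the other lengths.

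The origin recognition genes had a median of 432 per kb, close to the 433 of all 47 genes. ORC3 was at 607 per kb, ORC6 at 456, ORC5 at 432, ORC1, whose protein is degraded in S phase, at 260 and ORC2 at 157. ORC4, which was not among the 47 and was chosen after its value was seen, was at 112. Only 5 of the 10 pairs of these subunits kept their order with all 3 lengths: ORC6 became the highest and ORC1 the lowest per kb of coding sequence. Of the loaders, CDC6 was at 258 and CDT1 at 272 per kb, and their order turned with coding length. The CDT1 inhibitor GMNN was at 984, which was 3.61 times CDT1 per kb of transcript, 4.48 times per kb of coding sequence and 1.91 times over all exon bases.

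MCM7, MCM4 and MCM3 followed PCNA as the 3 next highest of the 47 genes per kb of transcript, whereas MCM5 stood at their median. The 6 proteins form a ring with 1 copy of each. MCM7 was at 2323 per kb, MCM4 at 2246, MCM3 at 1667, MCM6 at 857, MCM2 at 730.5 and MCM5 at 433. All 6 were in the top 25% of listed genes, and they held 32.0% of the summed mean normalized counts of the 47. Among only the genes with an authors' mean of 10 or more, MCM5 was at the 68.1 percentile and so outside the top 25%. Per kb of coding sequence, 19 members were in the top 25%, and MCM2 at rank 25 and MCM5 at rank 32 were not. MCM5 was the lowest with each length, and the highest was MCM7, MCM4 or MCM3 depending on the length. The ratio of highest to lowest was 5.36 per kb of transcript and 5.18 per kb of coding sequence. MCM7 lies on chromosome 7 from 100092233 to 100101940 (GRCh38, minus strand, 15 exons), and 392 of its exon bases overlap exons of AP4M1 on the other strand.

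Next come the factors that turn the loaded ring into a running helicase. DBF4, the activating subunit of the CDC7 kinase, was at 558 per kb and CDC7 at 375. MCM10, which acts as origins fire, was at 259, and CDC45, a stable part of the running helicase, at 230. Of the 4 GINS subunits, GINS1 was at 408, GINS4 at 318, GINS3 at 207 and GINS2 at 112, the lowest of all 47 genes per kb of transcript. GINS transcripts are mostly non-coding, with 2723 of 3311 bases in GINS1, and per kb of coding sequence the 4 genes ran from 529 to 2300. GINS2 was the lowest of the 4 by both lengths, but GINS3 was when all exon bases were counted.

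At the fork, PCNA, the sliding clamp that holds polymerases and many other factors on DNA, was the highest of all 47 genes with each of the 3 lengths, at 2805 per kb of transcript. It lies on chromosome 20 from 5114953 to 5126626 (GRCh38, minus strand, 6 exons). The subunits of RFC, which loads PCNA, were closer to each other than the MCM genes: RFC1 was at 991 per kb, RFC3 at 787, RFC2 at 770, RFC4 at 747 and RFC5 at 475, a range of 2.09 times. All 5 were in the top 25% of listed genes. Among only the genes with an authors' mean of 10 or more, 18 members were, and RFC5, which ranked 21 of the 47, was not. Per kb of coding sequence, 19 members were in the top 25%, and RFC5 at rank 22 and RFC4 at rank 24 were not.

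Polymerase alpha-primase, which lays down primers, had PRIM2 at 658 per kb, PRIM1 at 628, POLA1 at 394 and POLA2 at 298. Of the catalytic subunits, POLE of the leading strand ranked 39 and POLD1 of the lagging strand 42 among the 47 genes. POLD1 was at 189 per kb, against 412 for POLD3 and 1438 for POLD2, the subunit that links POLD1 to POLD3. That order held with all 3 lengths, but the ratio of POLD2 to POLD1 was 7.59 per kb of transcript, 8.39 per kb of coding sequence and 2.19 over all exon bases. POLE was at 212 and its partner POLE2 at 206, a ratio of 1.03. The small subunits not among the 47, chosen after their values were seen, were POLD4 at 230, POLE4 at 255 and POLE3 at 1337. POLE3 also serves in a chromatin complex outside the fork.

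Of the 3 subunits of RPA, which coats single-stranded DNA, RPA2 was at 1248 per kb, RPA1 at 1130 and RPA3 at 229. The RPA3 transcript has 363 coding bases of 2020, and per kb of coding sequence RPA3 was at 1272, RPA2 at 2440 and RPA1 at 2963, so the order of RPA1 and RPA2 depends on the length while RPA3 stays the lowest. FEN1, the nuclease that trims Okazaki flaps, was at 1111 per kb and LIG1, the ligase that seals the nicks, at 185. FEN1 was the higher with every length, by 6.02, 9.38 and 20.03 times for transcript, coding and all exon bases. FEN1 shares 49 exon bases with FADS2 on the same strand, and the authors' mean of FADS2 is 27058. The part of shared reads in the level of FEN1 was not tested.

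The wider set of 37 replication genes outside the 47 had a median of 314 per kb, and 14 of them (37.8%) were in the top 25%. The highest was SUPT16H, a histone chaperone subunit, at 2762 per kb, and the lowest ATAD5, which unloads PCNA, at 51.2. Per kb of coding sequence, the highest was CHTF8 at 7185 and the lowest TICRR at 63.3. All 10 of the other E2F and RB family genes were above the median of listed genes, with 4 in the top 25%.

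**Figure D4:**
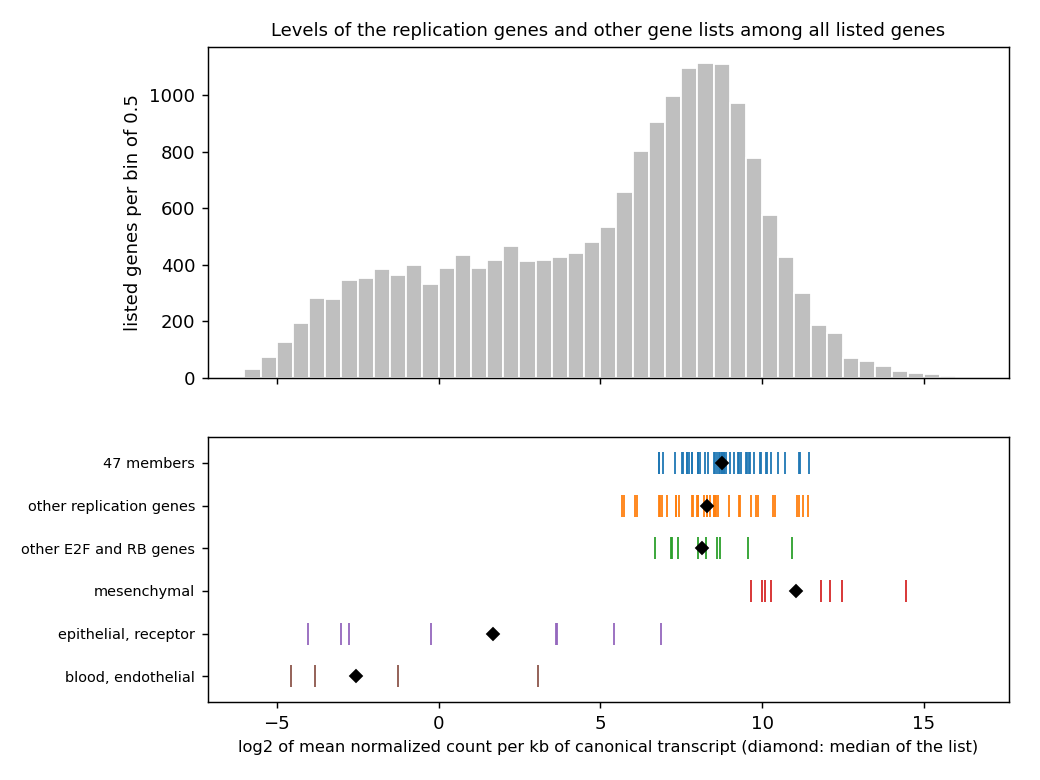
The upper panel counts listed genes by log2 mean normalized count per kb of transcript, and the lower panel marks each gene of 6 lists on the same axis, with a diamond at the median. The 47 members lie between 112 and 2805 per kb with a median of 433, against a median of 2433 for the mesenchymal markers and of 6.61 for the epithelial and hormone receptor markers.

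The genes are scattered over 18 chromosomes, with 6 on chromosome 7 and 5 on chromosome 6. Their start sites were often close to that of another gene: 11 of the 47 (23.4%) had the start of a protein-coding gene on the other strand within 1000 bases upstream, against 11.1% of 15542 listed protein-coding genes. The members and partners were MCM4 and PRKDC, MCM7 and AP4M1, ORC1 and PRPF38A, ORC3 and RARS2, ORC6 and VPS35, CDC45 and UFD1, DBF4 and SLC25A40, POLE and PXMP2, RPA1 and SMYD4, FEN1 and TMEM258, and LIG1 and ZSWIM9. Levels of neighbours were near each other in some pairs and far apart in others. MCM4 and PRKDC were nearly level at 2246 and 2280 per kb. ORC3 was 0.813 times its partner, ORC1 0.728 times, POLE 0.696 times and FEN1 1.32 times. MCM7 was 16.9 times AP4M1, RPA1 was 9.08 times SMYD4, and CDC45 was 0.262 times UFD1. DBF4 was 2.85 times its partner, LIG1 2.74 times and ORC6 0.440 times. Whether neighbours are more alike than other genes was not tested. In all, the replication gene was the higher in 5 pairs and the lower in 6.

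Some levels could hold reads of other loci. Pseudogenes named after 10 of the 47 genes are annotated, 18 in all, 3 each for PCNA, DBF4 and RPA2, and none has a row of its own. Exon bases are shared with another protein-coding gene in 13 members, on the same strand in 4 (POLA2, PRIM1, POLD1 and FEN1) and on the other strand in 10, with PRIM1 in both counts. POLA2 shares 2012 bases, 16.8% of its exon bases, with a gene on the same strand that the annotation gives no symbol. Also on the same strand, PRIM1 shares 139 bases with NACA, whose authors' mean is 9972, and 362 with a gene without a symbol. POLD1 shares 426 bases with a gene without a symbol. The part of shared reads in these levels was not tested. CCNE2 has the largest percent, 37.0% or 1629 bases, shared with INTS8 on the other strand. The libraries were stranded, but the strand setting of the counting is not given in the sources used here.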

How the data were processed

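RNA was isolated from triplicate cultures by the authors, with Trizol per the paper's methods and a column kit per the labels, and made into stranded poly(A) libraries. STAR was used for alignment to GRCh38. The authors normalized feature counts and compared DOX with vehicle with DESeq2. The counter, its settings and any filter are not given in the sources used here. The one deposited table holds 19792 gene symbols with values in 6 columns. One of them, a signal value, is the mean normalized count, which the authors deposited as a mean over all 6 libraries. The other 5 columns (log2 fold change, its standard error, statistic, p-value and adjusted p-value) are the authors' own comparison and were not used, so no test was run. Depth per library is unknown, and among the values used the size of each mean is the only guide to its precision.

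Levels were divided by the length of the Ensembl canonical transcript of GENCODE 44. Of the symbols, 17729 matched directly, 581 by a synonym, and 1482 had no match. Percentiles and the top 25% were taken over the 18310 matched genes. For each gene, the RefSeq promoter nearest to the canonical start was searched. Motif search and ranking were tested on simulated data. The simulated sequences held only A and C outside planted motifs, so that test could not show false matches. The text names all 47 genes, WDR5, the cell type markers, the highest and lowest gene of the other lists, partners by position and, where it says so, genes chosen later. One marker gene fixed in the design is not reported here. The 47 genes and all lists were chosen with earlier results of these data known. Python 3.11.15, numpy 2.4.6, pandas 2.3.3 and matplotlib 3.10.9 were used.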

Additional observations from a re-analysis of the deposited data

How the results depend on the processing

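No paired analysis was possible because the libraries were not analysed one by one. For the same reason no replicate was left out and the count test planned for single samples was not run. Of 49 alternative values, 31 stayed within 1.5 times the reported one, or within its 95% binomial interval for the share in the top 25%, and 18 moved. Exon bases over all transcripts, and the promoters of all genes as a background (3.27%), were added after the data were seen.

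The 28 members in the top 25% became 19 per kb of coding sequence, where only protein-coding genes are ranked, and 18 among genes with an authors' mean of 10 or more. The 30 genes with an authors' mean of at least 1000 became 13 at 2000. The 19 promoters with an E2F-type motif became 9 with the single spelling GGCGGGAA, which is also in 4.71% of listed promoters. Ratios of highest to lowest gene within a group moved per kb of coding sequence for DBF4 to CDC45 (2.43 to 3.97), RPA (5.46 to 2.33) and FEN1 to LIG1 (6.02 to 9.38). Over all exon bases they moved for CDC6, CDT1 and GMNN (3.81 to 2.26), polymerase delta (7.59 to 2.19) and FEN1 to LIG1 (20.03). Without division by length they became 4.73 for DBF4 to CDC45, 2.24 for origin recognition, 1.71 for CDC6, CDT1 and GMNN, 4.83 for RFC, 3.55 for polymerase delta, 4.77 for polymerase epsilon, 11.9 for RPA and 3.88 for FEN1 to LIG1. Of 68 pairs within groups, 52 kept their order with all 3 lengths and 16 did not. Which length fits the transcripts of these cells was not tested.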
